A study of Homo sapiens with 11 samples.

Results

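The genes described here are 35 ribosome biogenesis factors, followed on exon arrays of human cells in which the elongation and splicing factor Tat-SF1 (gene HTATSF1) was knocked down. They were taken by name: a probe set belonged to one of them if it carried exactly 1 gene symbol and that symbol, or an older synonym of it, was on the list. Of the 35 genes, 34 had such probe sets and 33 had enough bright ones for a gene value, out of 14520 genes with a gene value on these arrays. NOP58 had no probe set with 1 symbol, and RRS1 had too few that passed the filter on dim values.

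The cells were T-REx-293, cells made from HEK293 (human embryonic kidney) in which an introduced plasmid is switched on by adding tetracycline. The knockdown group consisted of 3 arrays of cells expressing shRNA A and 3 of cells expressing shRNA B, both short hairpin RNAs directed at Tat-SF1. The control group consisted of 3 arrays of cells with an shRNA against the green fluorescent protein (GFP) and 2 of cells with the empty vector, whose replicate 3 failed quality control. All 11 cultures also carried a GFP plasmid stably and received 2.5 µg/mL tetracycline for 72 h, so the GFP shRNA had a target in them. The labels call the replicates of a construct biological but do not say whether a construct was carried by 1 clone or by a pool, so an effect of an shRNA and of the cells that carry it cannot be told apart.

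Ribosomes are built in the nucleolus, where RNA polymerase I transcribes the long precursor of the ribosomal RNAs. Small nucleolar ribonucleoproteins of the box C/D and box H/ACA classes guide methylation and pseudouridylation of that precursor, and large assemblies of proteins fold, trim and cut it into the RNAs of the small and the large ribosomal subunit. Most of these factors are needed by every growing cell and their messenger RNAs tend to be abundant in dividing cell lines.

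The promoters of a few members are shown first, as reference for the genes that the values below turn on. NCL, BYSL, NOB1, NOP16 and GAR1 are 5 of the 6 members with the lowest unadjusted p after knockdown (the window of the sixth, BOP1, is not shown), UTP20 is the member with the largest positive difference, and NAT10, DDX21 and UTP20 are the members whose window holds an E-box. Each sequence is the 250 bases before an annotated start of the gene in RefSeq, with both starts shown for GAR1 and DDX21, on GRCh38.p14, written 5′ to 3′ on the strand of the gene. Capitals mark matches on either strand to the E-box CACGTG, bound by MYC and related factors, or to the ETS core CCGGAAG, bound by ETS family factors; every other base is in lower case.
NCL (chr2:231464485-231464734, minus strand): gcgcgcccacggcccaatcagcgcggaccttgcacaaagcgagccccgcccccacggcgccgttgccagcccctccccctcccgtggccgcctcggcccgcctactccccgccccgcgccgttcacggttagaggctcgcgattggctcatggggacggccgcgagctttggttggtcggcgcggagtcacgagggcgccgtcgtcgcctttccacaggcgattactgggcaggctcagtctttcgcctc
BYSL (chr6:41921249-41921498, plus strand): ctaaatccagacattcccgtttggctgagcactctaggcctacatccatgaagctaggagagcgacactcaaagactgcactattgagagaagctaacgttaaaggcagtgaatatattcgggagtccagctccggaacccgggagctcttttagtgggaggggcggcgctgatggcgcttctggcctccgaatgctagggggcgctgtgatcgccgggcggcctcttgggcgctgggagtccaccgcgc
NOB1 (chr16:69754927-69755176, minus strand): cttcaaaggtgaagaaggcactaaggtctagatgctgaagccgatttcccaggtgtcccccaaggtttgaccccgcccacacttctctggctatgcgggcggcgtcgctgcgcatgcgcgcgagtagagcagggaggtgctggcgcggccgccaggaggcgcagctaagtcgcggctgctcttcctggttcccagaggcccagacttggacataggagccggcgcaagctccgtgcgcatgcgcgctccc
NOP16 (chr5:176388599-176388848, minus strand): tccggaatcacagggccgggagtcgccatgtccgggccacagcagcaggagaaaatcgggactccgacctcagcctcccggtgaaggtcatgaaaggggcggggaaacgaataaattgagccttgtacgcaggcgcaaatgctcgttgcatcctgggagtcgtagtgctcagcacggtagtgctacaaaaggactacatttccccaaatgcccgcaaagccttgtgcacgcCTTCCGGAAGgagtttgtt
GAR1 (chr4:109815260-109815509, plus strand): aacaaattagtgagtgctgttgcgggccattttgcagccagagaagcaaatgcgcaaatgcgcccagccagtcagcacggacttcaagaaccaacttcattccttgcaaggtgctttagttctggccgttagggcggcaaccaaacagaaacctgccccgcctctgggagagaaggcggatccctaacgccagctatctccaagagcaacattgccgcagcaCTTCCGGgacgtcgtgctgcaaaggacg
GAR1 (chr4:109815512-109815761, plus strand): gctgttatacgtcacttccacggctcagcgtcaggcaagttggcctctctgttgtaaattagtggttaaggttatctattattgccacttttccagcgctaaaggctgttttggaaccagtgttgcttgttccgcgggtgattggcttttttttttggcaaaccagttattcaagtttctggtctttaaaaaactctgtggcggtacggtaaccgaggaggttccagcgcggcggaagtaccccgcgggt
UTP20 (chr12:101279855-101280104, plus strand): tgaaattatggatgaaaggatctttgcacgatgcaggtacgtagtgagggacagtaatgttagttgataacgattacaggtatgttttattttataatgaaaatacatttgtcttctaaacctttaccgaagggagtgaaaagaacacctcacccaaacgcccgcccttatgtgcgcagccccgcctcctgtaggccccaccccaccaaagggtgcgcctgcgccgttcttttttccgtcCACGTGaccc
NAT10 (chr11:34105379-34105628, plus strand): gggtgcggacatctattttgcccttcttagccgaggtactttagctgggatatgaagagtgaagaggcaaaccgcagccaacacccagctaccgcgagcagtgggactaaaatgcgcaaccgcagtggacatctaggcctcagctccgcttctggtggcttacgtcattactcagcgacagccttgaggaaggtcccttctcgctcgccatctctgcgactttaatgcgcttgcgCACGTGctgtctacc
DDX21 (chr10:68955920-68956169, plus strand): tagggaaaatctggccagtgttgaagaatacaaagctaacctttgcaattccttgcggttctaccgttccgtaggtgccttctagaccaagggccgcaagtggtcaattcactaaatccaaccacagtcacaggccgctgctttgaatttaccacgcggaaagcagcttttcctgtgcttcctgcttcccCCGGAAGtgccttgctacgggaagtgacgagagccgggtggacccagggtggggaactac
DDX21 (chr10:68956397-68956646, plus strand): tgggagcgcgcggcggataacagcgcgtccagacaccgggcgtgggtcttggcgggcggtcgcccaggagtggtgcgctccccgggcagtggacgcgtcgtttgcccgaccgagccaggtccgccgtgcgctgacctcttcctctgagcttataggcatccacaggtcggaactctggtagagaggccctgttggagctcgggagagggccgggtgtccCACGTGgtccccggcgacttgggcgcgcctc
RefSeq gave 36 such windows for 29 of the 35 members, 7 of which had 2 starts. The E-box occurred in at least 1 window of 3 of these 29 genes (10.3%), against 1542 of 15843 protein-coding genes (9.73%). The ETS core occurred in at least 1 window of 10 of the 29 genes (34.5%), against 2215 of the 15843 (14%). Counted by window, the shares were 30.6% of the members' windows and 10.7% of all windows for the ETS core, and 8.33% of the members' windows and 7.37% of all windows for the E-box. The ETS core was found in POLR1B, POLR1C, RRP9, FBL, GAR1, TSR1, NOP16, WDR74, NIP7 and DDX21. In GAR1 and DDX21 it lies in the first of the windows shown but not in the other, and in NOP16 the matches on the 2 strands overlap. A match says only that these letters are present in the window.

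The deposited values were log2 intensities of 1399022 probe sets, and a gene value was the median of the gene's probe sets on an array. Array medians lay between 7.902 and 7.905, and pairs of arrays correlated at 0.941 to 0.962 over probe sets with an estimate on every array. HTATSF1 was at 8.29, 8.21 and 8.22 with shRNA A and 8.11, 8.19 and 8.21 with shRNA B, against 8.53, 8.63 and 8.49 with the GFP shRNA and 8.54 and 8.32 with the empty vector, so that every knockdown array was below every control array. It averaged 8.21 ± 0.0567 in knockdown arrays and 8.5 ± 0.115 in control arrays (SD, n = 6 and 5), a difference of -0.30 ± 0.0515 (SE, limma adjusted p = 0.0483), and 14 of its 14 probe sets were lower. That call rests on the whole set of arrays and on the filter: leaving out 1 array moved the adjusted p between 0.0164 and 0.103, and it stayed under 0.05 only without empty vector replicate 2. It was 0.0940 without the filter on dim probe sets. HTATSF1 lies not far above the array medians. On the signal above the array median, with 32 added before taking log2, its difference was -0.82 (limma adjusted p = 0.0362). For a gene at this level, that size depends on the added constant. The bright end of the arrays differed on average between the groups. The mean of the 3000 highest gene values was 9.258 ± 0.0448 in knockdown arrays and 9.325 ± 0.0411 in control arrays (SD, exact two-sided permutation test over 462 splits, p = 0.0303). That test split single arrays and did not keep the arrays of a construct together. The groups overlapped: empty vector replicate 2 stood at 9.275, below shRNA A replicate 3 (9.286) and shRNA B replicates 2 (9.305) and 3 (9.286). The names of 4 of the 6 knockdown arrays (shRNA A replicate 3 and all of shRNA B) and of 0 of the 5 control arrays end in a suffix whose meaning is not given, and all 3 arrays of shRNA B carry it, so that a fit with the suffix as a block separates it from shRNA B only through shRNA A replicate 3. In that fit the members' median difference was -0.10 with shRNA B. Of 8 measured genes typical of HEK293 cells, 6 were above 8.5 in the control arrays, among them VIM at 10.11 in knockdown and 10.18 in control arrays and KRT8 at 9.49 in knockdown and 9.73 in control arrays, while NEFM and PAX2 stayed near the array medians. Markers of fibroblasts (5 measured), endothelium (3), hepatocytes (3) and blood (1) lay between 7.92 and 8.13 in knockdown arrays and between 7.92 and 8.12 in control arrays. Of 3 measured markers of carcinomas, EPCAM was the bright one, at 8.64 in knockdown and 8.81 in control arrays.

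No ribosome biogenesis factor passed the test after Tat-SF1 knockdown, and most of them had small negative differences. Of the 33 measured members, 0 were called by limma at an adjusted p of 0.05, where 0.227% of all genes were called (33 of 14520). At an unadjusted p of 0.05 the count was 6 of 33 (18.2%), against 15.2% of all genes. These 6 were BOP1, NCL, NOP16, BYSL, GAR1 and NOB1, all with negative differences. Among all genes at that threshold, 1863 of 2211 also had negative differences. The log2 difference, knockdown minus control, was negative for 28 of 33 members, against 67.2% of all genes, and its median was -0.08 over the members and -0.02 over all genes. Single members ranged between -0.31 and 0.07, and the smallest adjusted p was 0.0938. In RNA from whole cultures, a lower level in every cell and fewer cells with the transcript cannot be told apart.

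**Figure D1:**
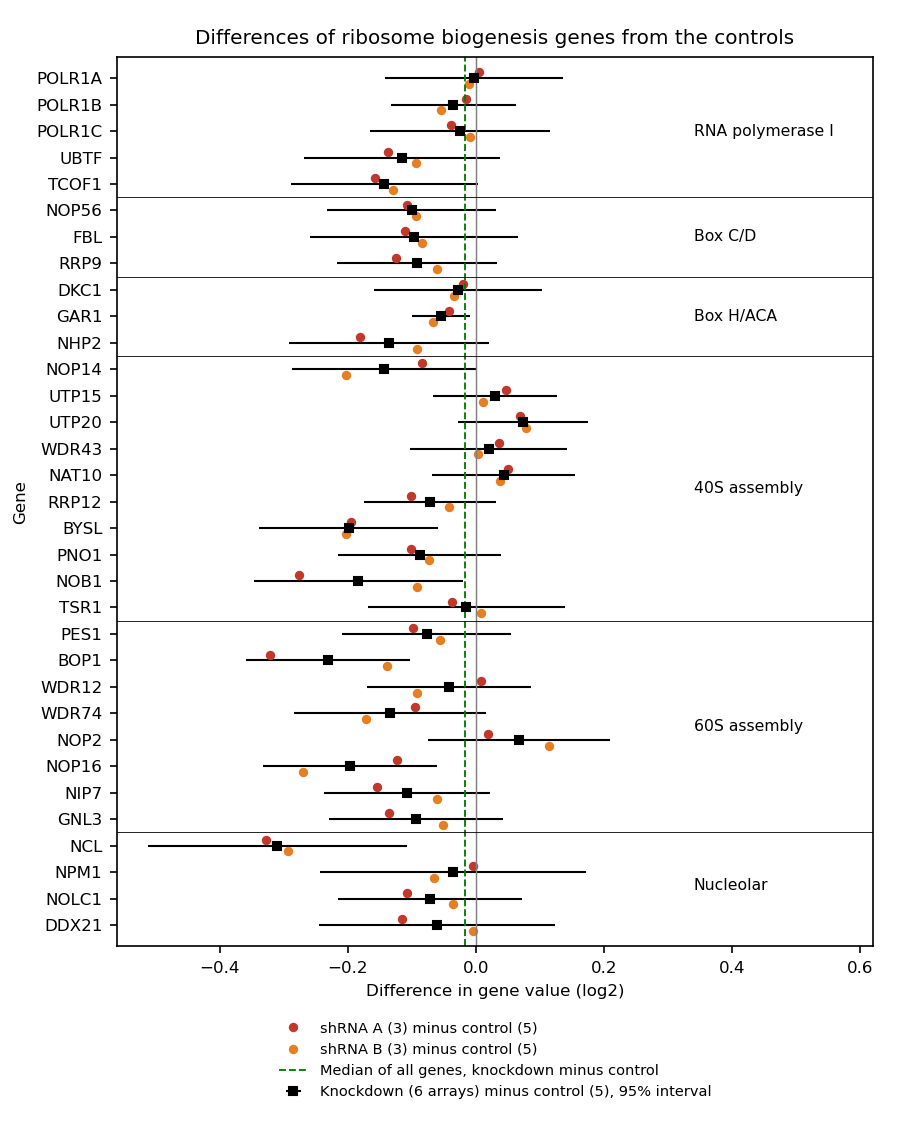
Log2 difference, knockdown minus control, with its 95% interval for each of the 33 measured members (squares, 6 knockdown and 5 control arrays), grouped by role, with circles for shRNA A and shRNA B alone and a dashed line at the median of all genes. The intervals of 6 members exclude 0, and none of the members had an adjusted p under 0.05.

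The precision of the arrays sets what could be seen. Standard errors of the members lay between 0.0217 and 0.0979, and for 32 of 33 members the 95% interval of the difference lay wholly above -0.5; the exception was NCL. The highest upper bound among the members was 0.21. For 10 of the 33 members the difference was larger than the larger of the 2 group SDs, against 19.6% of all genes. In 0 of 33 members did all 6 knockdown arrays lie below all 5 control arrays, against 2.02% of all genes, and in 0 did they all lie above, against 0.213%.

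The members are bright genes, and the brightest genes of the arrays had lower values after knockdown. Of the 33 members, 27 (81.8%) were among the brightest 25% of genes by mean value, those at 8.58 or above. The 27 bright members had a median difference of -0.09 and 24 of them were negative, against a median of -0.06 and 75% negative over the 3630 genes at that level. The part of brightness in the members' differences was not tested. With the array median subtracted on the linear scale, the signal in knockdown arrays was a median of 89.9% of that in control arrays over the members, with 72.1% for BOP1, 75.3% for NCL and 118% for UTP20. GAR1 lies too close to the array medians for such a share to be read.

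The RNA polymerase I group supplies the enzyme and its factors at the ribosomal DNA. All 5 measured members had negative differences, with a median of -0.03, and 0 had an unadjusted p under 0.05. The most negative in these values was TCOF1, which encodes treacle, a nucleolar phosphoprotein needed for transcription of the ribosomal DNA and mutated in Treacher Collins syndrome. TCOF1 was at 9.12, 8.85 and 9.09 on the shRNA A arrays and 9.13, 8.97 and 9.05 on the shRNA B arrays, against 9.24, 9.21 and 9.20 with the GFP shRNA and 9.29 and 8.95 with the empty vector. All 6 knockdown arrays lay below 4 of the control arrays, and empty vector replicate 2 lay among the lowest of them. The difference was -0.14 ± 0.069 (SE, limma adjusted p = 0.339). With a higher floor on dim probe sets it was -0.04, and UBTF was then the more negative at -0.16. UBTF, the upstream binding factor of the ribosomal DNA, was at 8.75, 8.70 and 8.79 with shRNA A and 8.6, 8.88 and 8.89 with shRNA B, against 9.11, 8.85 and 8.91 with the GFP shRNA and 8.67 and 8.88 with the empty vector. Its groups overlapped across most of their range, with a difference of -0.12. The enzyme's subunits were closer to 0: POLR1B, the second-largest subunit, had a difference of -0.03, POLR1C, shared with RNA polymerase III, one of -0.02, and POLR1A, the largest subunit, one of -0.0024.

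The box C/D group holds the proteins of the particles that guide 2′-O-methylation. Its 3 measured members had nearly equal differences, with a median of -0.10, and none passed the test. NOP56, a core protein of these particles, was at 9.28, 9.15 and 9.18 with shRNA A and 9.08, 9.37 and 9.21 with shRNA B, against 9.38, 9.24 and 9.29 with the GFP shRNA and 9.24 and 9.43 with the empty vector. The lowest control arrays stood at 9.24, and 4 of 6 knockdown arrays were below them. FBL, the methyltransferase fibrillarin, was at 10.97, 10.90 and 10.92 with shRNA A and 10.76, 11.12 and 10.98 with shRNA B, against 11.15, 10.86 and 11.07 with the GFP shRNA and 11.01 and 11.10 with the empty vector. The groups overlapped, and the adjusted p was 0.588 in limma. The difference of FBL was -0.10, and it was -0.18 when probe sets were averaged or the filter was left off. RRP9, which binds the U3 small nucleolar RNA, had a difference of -0.09.

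The box H/ACA group guides pseudouridylation, and its 3 members had negative differences of -0.14 for NHP2, -0.05 for GAR1 and -0.03 for DKC1. GAR1, a core protein of these particles and the dimmest member, was at 8.10, 8.01 and 8.02 with shRNA A and 8.00, 8.04 and 8.02 with shRNA B, against 8.05, 8.12 and 8.10 with the GFP shRNA and 8.07 and 8.09 with the empty vector. Only shRNA A replicate 1 lay among the controls, and the other 5 knockdown arrays were below every control array. The difference of -0.05 ± 0.0217 (SE) had a limma adjusted p of 0.242, and as the mean of its probe sets it was 0.0077. DKC1, the pseudouridine synthase dyskerin, was at 9.36, 9.40 and 9.40 with shRNA A and 9.31, 9.55 and 9.26 with shRNA B, against 9.46, 9.40 and 9.39 with the GFP shRNA and 9.30 and 9.49 with the empty vector. Its groups covered the same range, and the 95% interval of its difference was -0.16 to 0.10. With a higher floor the difference of DKC1 was -0.10. NHP2, another core protein, was at 9.15, 9.10 and 8.70 with shRNA A and 9.07, 9.04 and 9.11 with shRNA B, against 9.16, 9.26 and 9.08 with the GFP shRNA and 9.22 and 9.11 with the empty vector. All knockdown arrays lay below the 3 highest control arrays, and shRNA A replicate 3 stood apart from the rest. The difference of NHP2 was -0.03 with a higher floor, and -0.04 both when probe sets were averaged and on arrays without the suffix.

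**Figure D2:**
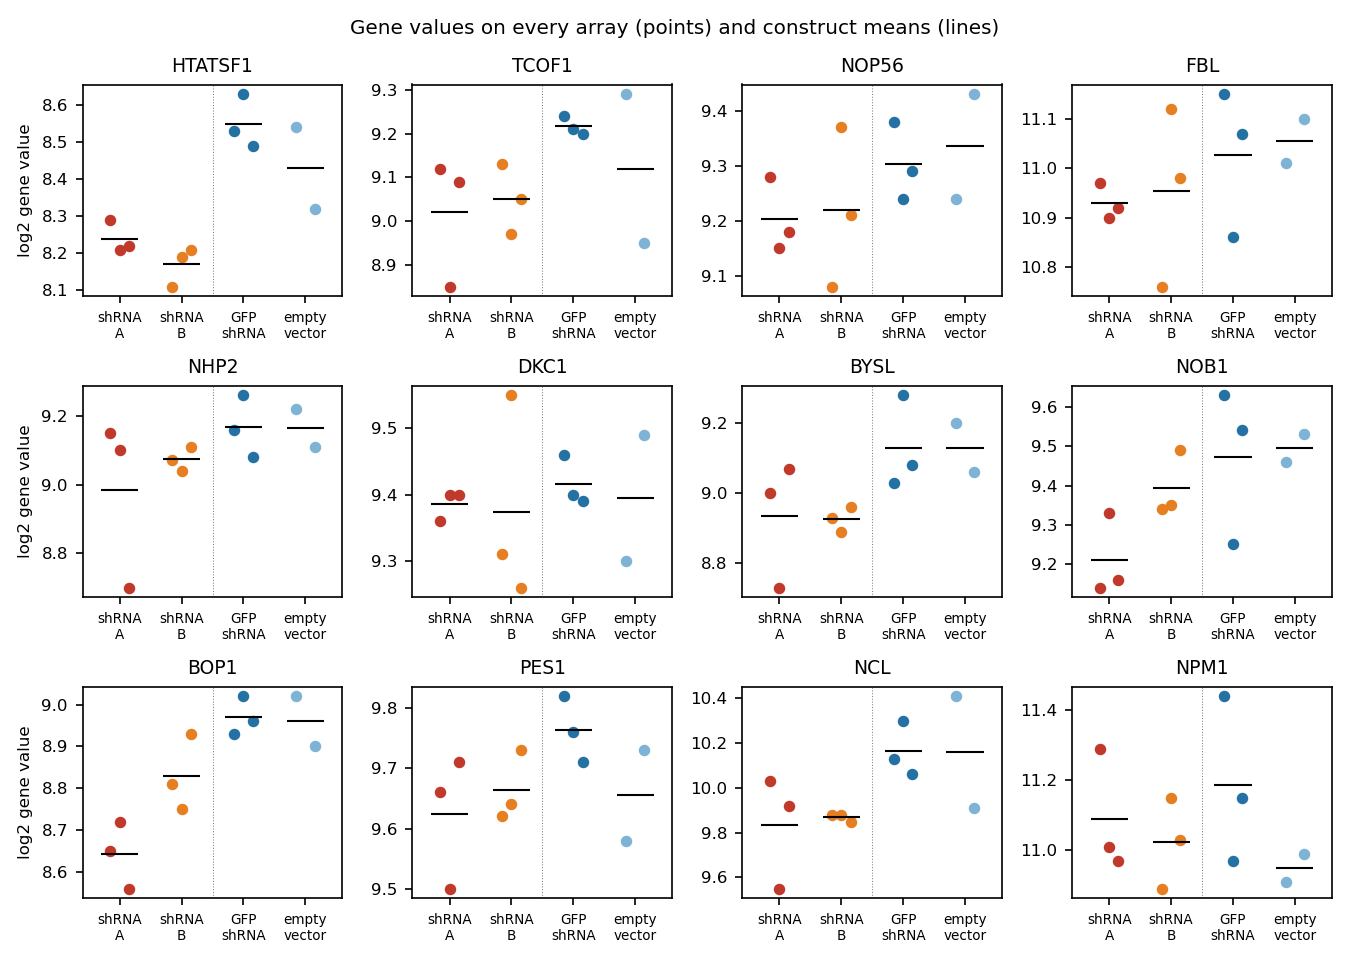
Log2 gene value of HTATSF1 and of the 11 members with the largest difference or highest level in their role, by construct, each point 1 array and each line a construct mean. BOP1 and BYSL each have 5 of 6 knockdown arrays below the lowest control array, while the groups of DKC1 and NPM1 overlap.

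The small-subunit group was the most mixed: 6 of its 10 members had negative and 4 had positive differences, with a median of -0.04. BYSL encodes bystin, a factor bound to precursors of the small subunit. It was at 9.00, 8.73 and 9.07 with shRNA A and 8.93, 8.89 and 8.96 with shRNA B, against 9.03, 9.28 and 9.08 with the GFP shRNA and 9.20 and 9.06 with the empty vector. All but shRNA A replicate 3 lay below the lowest control array. It averaged 8.93 ± 0.117 in knockdown arrays and 9.13 ± 0.106 in control arrays (SD, n = 6 and 5), a difference of -0.20 ± 0.0659 (SE, limma adjusted p = 0.173; 0.0485 with the mean of the probe sets).

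NOB1, the endonuclease that makes the mature 3′ end of the small-subunit RNA, was at 9.14, 9.33 and 9.16 with shRNA A and 9.34, 9.35 and 9.49 with shRNA B, against 9.63, 9.25 and 9.54 with the GFP shRNA and 9.46 and 9.53 with the empty vector. GFP shRNA replicate 2 was lower than 4 of the knockdown arrays, and the other 4 control arrays were above all knockdown arrays but shRNA B replicate 3. The difference was -0.18 ± 0.0771 (SE, limma adjusted p = 0.271). PNO1, which binds beside NOB1 on the precursor, had a difference of -0.09. NOP14, a component of the small-subunit processome, had one of -0.14, and RRP12, a repeat protein of the late precursors, one of -0.07.

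The positive differences of this group were smaller than the negative ones of BYSL and NOB1. UTP20, a very large scaffold protein of the small-subunit processome, was at 8.47, 8.52 and 8.44 with shRNA A and 8.40, 8.61 and 8.45 with shRNA B, against 8.43, 8.42 and 8.5 with the GFP shRNA and 8.39 and 8.30 with the empty vector. Its groups overlapped, although the highest arrays were knockdown arrays and the lowest was an empty vector array. The difference was 0.07 with a 95% interval of -0.03 to 0.18 (limma adjusted p = 0.490). NAT10, the acetyltransferase of the small-subunit RNA, had a difference of 0.04, and UTP15 and WDR43, which join the precursor as it is transcribed, had differences of 0.03 and 0.02. NAT10 was negative with 2 other ways of summarising probe sets, at -0.02 with their mean and -0.03 without the filter on dim ones. TSR1, a late factor of the small subunit, had a difference of -0.01.

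The large-subunit group had negative differences in 7 of 8 measured members, with a median of -0.10. BOP1, PES1 and WDR12 form the PeBoW complex, needed to process the precursor of the large-subunit RNAs. BOP1 was at 8.65, 8.72 and 8.56 with shRNA A and 8.81, 8.75 and 8.93 with shRNA B, against 8.93, 9.02 and 8.96 with the GFP shRNA and 9.02 and 8.90 with the empty vector. Only shRNA B replicate 3 reached the control range, and the shRNA A arrays were the lowest. BOP1 averaged 8.74 ± 0.126 in knockdown arrays and 8.97 ± 0.0544 in control arrays (SD, n = 6 and 5), a 1.17-fold lower mean on the deposited scale. The difference of -0.23 ± 0.0604 (SE) had the smallest adjusted p of all members, 0.0938 in limma. It passed the threshold with a higher floor on dim probe sets (adjusted p = 0.0481) and when probe sets were averaged (adjusted p = 0.0271).

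The other PeBoW genes had smaller differences by the median of their probe sets. PES1 was at 9.66, 9.50 and 9.71 with shRNA A and 9.62, 9.64 and 9.73 with shRNA B, against 9.82, 9.76 and 9.71 with the GFP shRNA and 9.58 and 9.73 with the empty vector. Its groups overlapped, with a difference of -0.08 and a limma adjusted p of 0.600. The difference of PES1 was -0.18 when probe sets were averaged (limma adjusted p = 0.0592) and -0.17 without the filter on dim ones, where BOP1 had -0.23 and -0.25. WDR12 had a difference of -0.04.

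NOP16, a nucleolar protein of early large-subunit precursors, was at 8.98, 8.85 and 8.95 with shRNA A and 8.69, 8.71 and 8.93 with shRNA B, against 9.07, 8.99 and 9.17 with the GFP shRNA and 8.96 and 9.05 with the empty vector. Here shRNA A replicate 1 alone reached the control range, and shRNA B replicates 1 and 2 held the lowest values. The difference was -0.20 ± 0.0639 (SE, limma adjusted p = 0.166), and it was -0.02 without the filter on dim probe sets, -0.05 with a higher floor and -0.04 when probe sets were averaged. Among the others, NIP7 had a difference of -0.11, the GTPase GNL3 (nucleostemin) one of -0.09 and WDR74 one of -0.13. NOP2, a methyltransferase of the large-subunit RNA, was the positive one, at 0.07 (limma adjusted p = 0.681). It was at 9.56, 9.56 and 9.64 with shRNA A and 9.53, 9.80 and 9.71 with shRNA B, against 9.57, 9.73 and 9.55 with the GFP shRNA and 9.51 and 9.48 with the empty vector, and the difference was -0.01 with the mean of the probe sets or on arrays without the suffix.

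The abundant nucleolar proteins all had negative differences, of very different size. NCL encodes nucleolin, which binds the precursor and is among the most abundant nucleolar proteins. It was at 10.03, 9.55 and 9.92 with shRNA A and 9.88, 9.88 and 9.85 with shRNA B, against 10.13, 10.30 and 10.06 with the GFP shRNA and 10.41 and 9.91 with the empty vector. Empty vector replicate 2 lay within the knockdown range, and the other control arrays were all above it. NCL averaged 9.85 ± 0.160 in knockdown arrays and 10.16 ± 0.197 in control arrays (SD, n = 6 and 5), a 1.24-fold lower mean. The difference of -0.31 ± 0.0955 (SE) was the most negative of the 33 members and had a limma adjusted p of 0.147.

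NPM1 encodes nucleophosmin, a chaperone of the outer nucleolus. It was at 11.29, 11.01 and 10.97 with shRNA A and 10.89, 11.15 and 11.03 with shRNA B, against 11.44, 10.97 and 11.15 with the GFP shRNA and 10.91 and 10.99 with the empty vector. The groups covered the same range, and the difference of -0.04 had a 95% interval of -0.24 to 0.17. It was -0.13 without the filter and 0.06 on arrays without the suffix. NPM1 has many processed pseudogenes, so its probe sets may read more than 1 transcript. NOLC1, a nucleolar phosphoprotein that binds both classes of small nucleolar particles, had a difference of -0.07 and DDX21, an RNA helicase of the nucleolus, one of -0.06.

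The shRNAs against Tat-SF1 were next set against the controls one at a time. These comparisons share their 5 control arrays. HTATSF1 itself was not called in either, with a difference of -0.26 with shRNA A (limma adjusted p = 0.170) and -0.33 with shRNA B (limma adjusted p = 0.0779). With shRNA A, 0 of 33 members were called, where 0.00689% of all genes were, and the median difference of the members was -0.10. With shRNA B, 0 of 33 were called, where 0.062% of all genes were, and the median was -0.06. Both differences were negative for 25 members and positive for 5, and POLR1A, WDR12 and TSR1 had opposite signs. NCL had a difference of -0.33 with shRNA A and -0.29 with shRNA B, and BYSL one of -0.19 with shRNA A and -0.20 with shRNA B.

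BOP1 and NOB1 were lowest with shRNA A and NOP16 with shRNA B. The differences from the controls were -0.14 with shRNA B and -0.32 with shRNA A for BOP1, -0.09 with shRNA B and -0.28 with shRNA A for NOB1, and -0.27 with shRNA B and -0.12 with shRNA A for NOP16. In the direct comparison of shRNA B with shRNA A, 0 of 33 members were called, as were 0% of all genes, and 1 member had an unadjusted p under 0.05, where 4.41% of all genes did. The difference, shRNA B minus shRNA A, was positive for 20 members and negative for 13, against 48.7% and 51.3% of all genes. The members' median was 0.03, and it was -0.03 with the suffix as a block. The member with an unadjusted p under 0.05 was BOP1, which averaged 8.83 ± 0.0905 with shRNA B and 8.64 ± 0.0809 with shRNA A (SD, n = 3 each), with a limma adjusted p of 0.999. The 95% interval of its difference was 0.03 to 0.33. For NOB1 the interval was -0.02 to 0.39 and for NOP16 -0.32 to 0.02.

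The control constructs were also set against each other. Between the GFP shRNA and the empty vector, 0 of 33 members were called, where 0.00689% of all genes were. The unadjusted p was under 0.05 for 2 of 33, where it was for 4.48% of all genes. These were DDX21, with a difference of 0.27, and TSR1, with one of 0.25, both higher with the GFP shRNA. DDX21 was at 10.36, 10.09 and 10.00 with the GFP shRNA, against 9.95 and 9.81 with the empty vector, and TSR1 at 9.43, 9.27 and 9.36 with the GFP shRNA, against 9.14 and 9.06 with the empty vector. The constructs did not overlap for either gene, but both were picked by this comparison and such non-overlap was not counted over all genes. Over the members the median difference was 0.05, against 0.02 over all genes, and 24 of 33 were higher with the GFP shRNA, where 64.5% of all genes were.

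**Figure D3:**
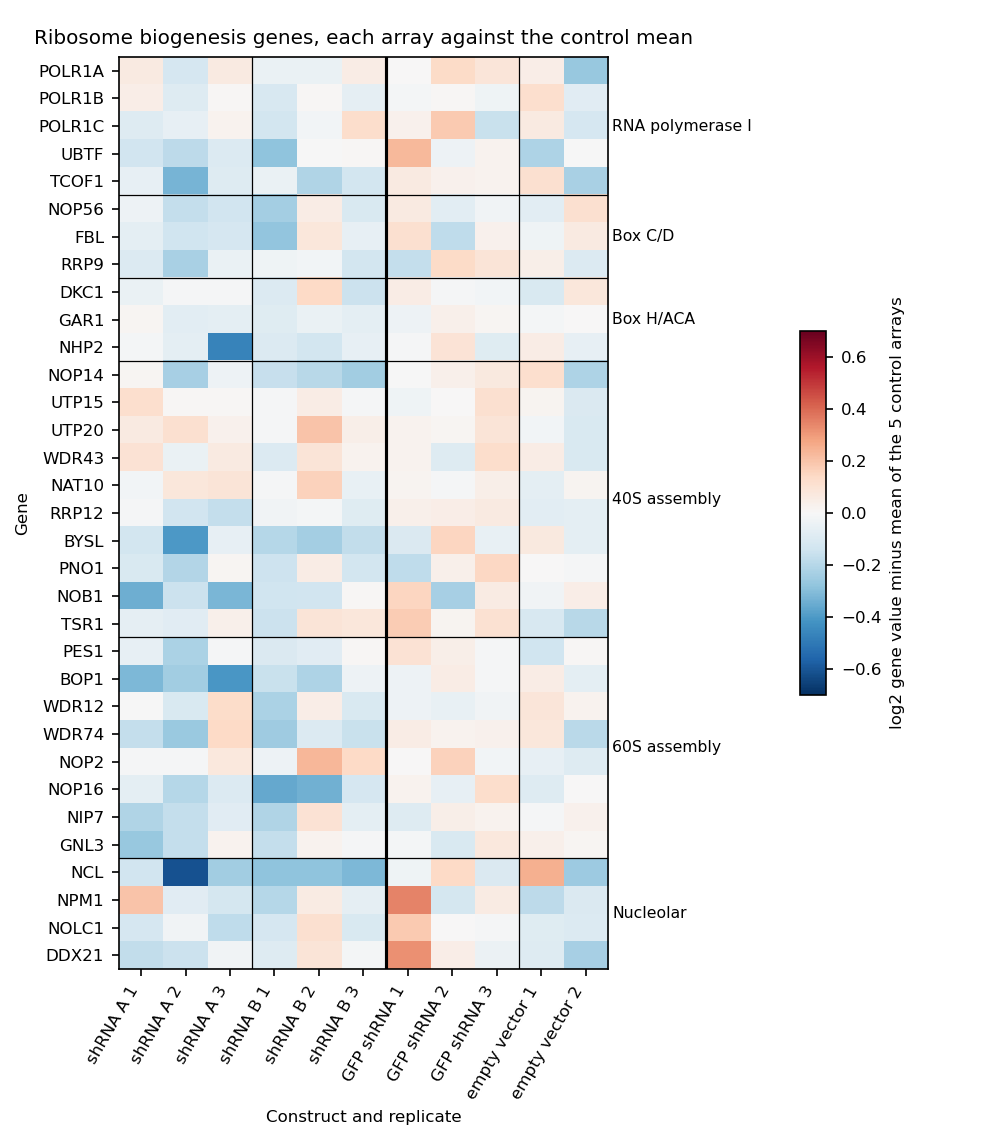
Log2 gene value of the 33 measured members on each of the 11 arrays minus the mean of the 5 control arrays, with genes grouped by role and arrays in the order shRNA A, shRNA B, GFP shRNA and empty vector. The arrays of shRNA A replicate 2 and shRNA B replicate 1 are low across most members, and shRNA B replicate 2 is not.

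The members' level differed between the knockdown arrays. On shRNA B replicate 1, 33 of 33 members were below the mean of the control arrays, where 75.6% of all genes were, and on shRNA A replicate 2 it was 30, where 70.6% of all genes were. On shRNA A replicate 1 it was 25 members (75.8%, against 62.1% of all genes) and on replicate 3 it was 20 (60.6%, against 58.7%). On shRNA B replicate 2 it was 16 members (48.5%, against 54.3% of all genes) and on replicate 3 it was 24 (72.7%, against 60.2%). The medians of the members were -0.06, -0.14 and -0.03 on the shRNA A arrays and -0.13, 0.01 and -0.06 on the shRNA B arrays. On the GFP shRNA arrays they were 0.03 on each, and on the empty vector arrays -0.007 and -0.09, each array set against the other 4 controls. Empty vector replicate 2 therefore stood below shRNA A replicates 1 and 3 and shRNA B replicates 2 and 3 in this measure.

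**Figure D4:**
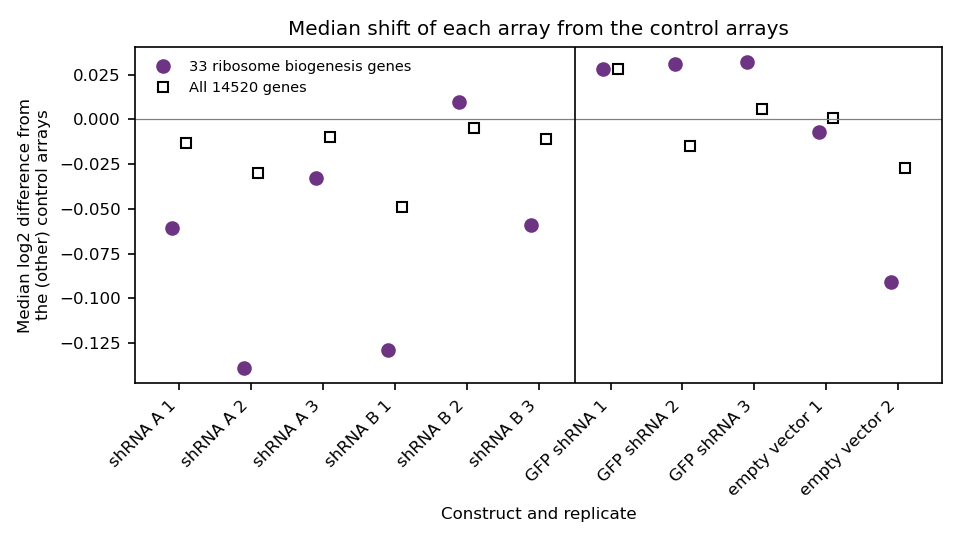
Median over the 33 members, beside the median over all 14520 genes, of each array's log2 gene value minus the control mean (for a control array, minus the mean of the other controls). The members' median is lowest on shRNA A replicate 2 and shRNA B replicate 1, and empty vector replicate 2 lies at -0.091.

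Within genes, the probe sets show how evenly a difference runs along a transcript. Of the 745 probe sets behind the 33 members, 492 (66%) were lower in the knockdown arrays, against 61.6% of all probe sets used. For BOP1 all 33 probe sets were lower, for NCL 25 of 27, for PES1 13 of 14, for BYSL 8 of 9 and for FBL 10 of 11. NOB1 had 17 of 21 lower, and NOP16 only 5 of 9. At the other end, 15 of 71 probe sets of UTP20 and 5 of 21 of UTP15 were lower.

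With each gene split into 3 parts by probe set number, BOP1 had median differences of -0.18, -0.24 and -0.28 and NCL of -0.24, -0.28 and -0.32. The medians of both genes were negative in each part, although NCL had 1 higher probe set in the first part and 1 in the second. Probe set numbers stand in here for order along the gene, since no coordinates of the array's build were used.

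**Figure D5:**
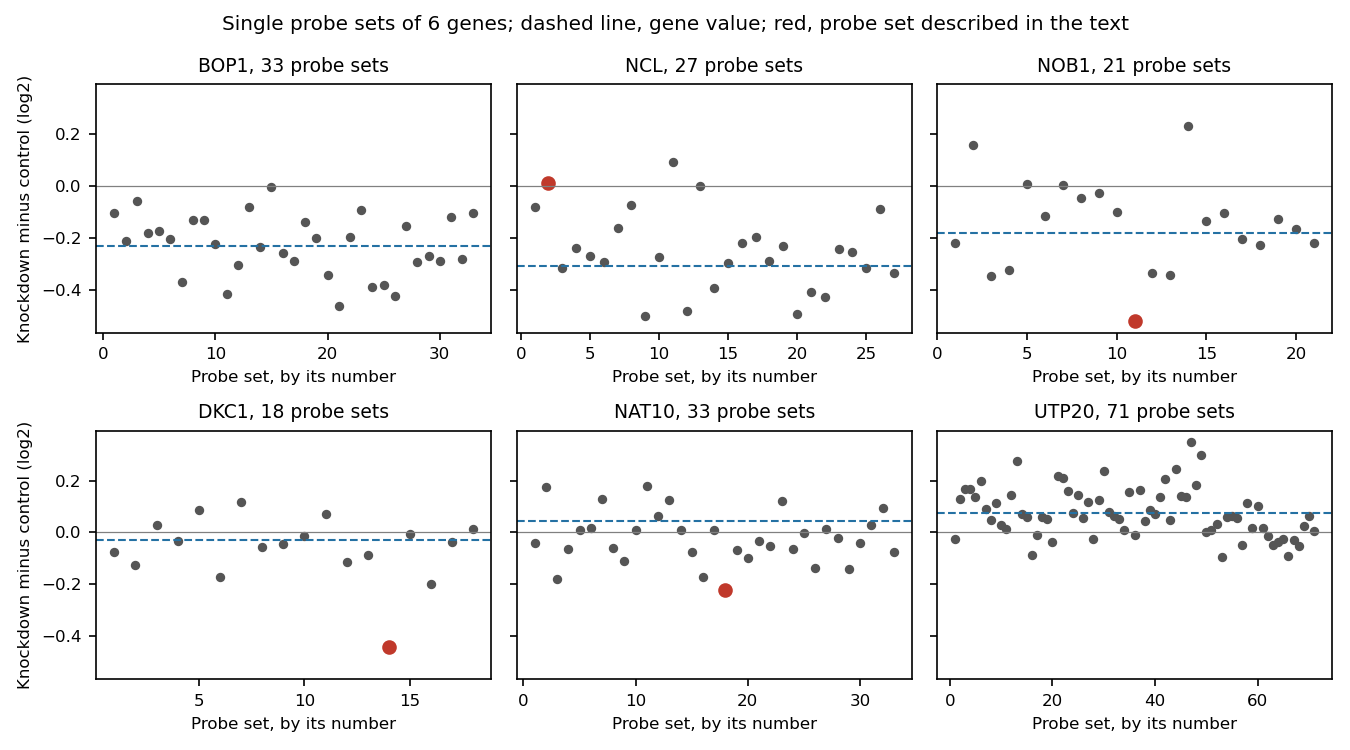
Log2 difference, knockdown minus control, of each probe set of selected members, in the order of probe set number within the gene, with the gene's own difference as a dashed line and the probe sets named in the text in red. All 33 probe sets of BOP1 lie below 0, and most of the 71 of UTP20 lie above.

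Exon usage was read from the splicing index, for which the gene value was subtracted from the log2 value of each of its probe sets, array by array. Of the 745 member probe sets 0 were called between knockdown and control arrays, where 0.00317% of all 220910 probe sets were. The unadjusted p was under 0.05 for 162 (21.7%), against 11.8% of all probe sets and 17.6% of those in the brightest 25% of genes. These 162 lay in 30 members, with 84 higher and 78 lower. For 13 of the 745 (1.74%) the groups did not overlap, against 1.45% of all probe sets and 2.25% of those in the brightest 25% of genes.

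The smallest adjusted p, 0.0626 in limma, belonged to a probe set of DKC1 (3996691, rank 14 of 18 in the gene). Its log2 values were 9.53, 9.41 and 9.58 with shRNA A and 9.45, 9.71 and 9.34 with shRNA B, against 9.97, 9.96 and 9.84 with the GFP shRNA and 9.73 and 10.23 with the empty vector. Every knockdown array was below every control array, while the gene value of DKC1 covered one range in both groups. The splicing index lay between 0 and 0.18 in knockdown arrays and between 0.43 and 0.74 in control arrays, a difference of -0.41 ± 0.0565 (SE). It was -0.42 with shRNA A and -0.41 with shRNA B.

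A probe set of NOB1 (3696702) had a splicing index of -0.40 to -0.17 in knockdown arrays and -0.01 to 0.23 in control arrays, a difference of -0.34 ± 0.0546 (SE, limma adjusted p = 0.0774). A probe set of NAT10 (3326286) had one of 0.45 to 0.56 in knockdown arrays and 0.65 to 0.86 in control arrays, a difference of -0.27 ± 0.0437 (SE, limma adjusted p = 0.0774). Both were lower relative to the rest of their gene in the knockdown arrays. For a probe set of NCL (2603462) the index was -0.39 to -0.09 in knockdown arrays and -0.73 to -0.46 in control arrays, while its own log2 level was 9.57 in knockdown and 9.56 in control arrays. The probe set thus kept its level while the gene value of NCL was lower. A probe set of TCOF1 (2835481) had an index of 0.28 to 0.62 in knockdown arrays and -0.05 to 0.25 in control arrays (limma adjusted p = 0.116). For a probe set of RRP12 (3302270) the difference was 0.22 ± 0.0409 (SE, limma adjusted p = 0.101). That RRP12 probe set averaged 8.08 in knockdown and 7.93 in control arrays, close to the array medians, and did not pass the higher floor.

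Other genes of the pathway were counted from a list of 128 that are not among the 35, of which 123 had a gene value. Of these, 0 were called between knockdown and control arrays, where 0.227% of all genes were. The unadjusted p was under 0.05 for 22 (17.9%, 19 lower and 3 higher), against 15.2% of all genes. The difference was negative for 92 of 123 (74.8%), against 67.2% of all genes, with a median of -0.05, against -0.02 over all genes. By role, negative differences were found for 12 of 14 genes of ribosomal RNA transcription, 7 of 8 of box C/D assembly and 3 of 4 of the box H/ACA class. The transcription genes included BRF1 and GTF3A, which serve RNA polymerase III. Differences were also negative for 30 of 47 genes of the small subunit, 38 of 48 of the large subunit and 2 of 2 regulators (MAX and MNT).

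The smallest adjusted p on that list was 0.0517, for NOC4L, a small-subunit factor that in yeast works with NOP14. NOC4L averaged 8.82 ± 0.069 in knockdown arrays and 9.07 ± 0.0623 in control arrays (SD, n = 6 and 5), and its groups did not overlap. WDR18, a partner of PELP1 and TEX10 in maturation of the large subunit, averaged 9.26 ± 0.065 in knockdown arrays and 9.54 ± 0.0802 in control arrays, with a limma adjusted p of 0.0542. TBL3 (the small-subunit factor UTP13 in yeast) had a difference of -0.28 and a limma adjusted p of 0.0801. EBNA1BP2, a large-subunit factor, had a difference of -0.21, and RUVBL2, an ATPase that helps to assemble box C/D particles, one of -0.29. NOP10, a core protein of the box H/ACA particles, had a difference of -0.18 (limma adjusted p = 0.316). In 6 of the 123 genes (NOC4L, WDR18, TBL3, EBNA1BP2, DDX49 and CAVIN1, also known as the RNA polymerase I release factor PTRF) all knockdown arrays lay below all control arrays, where 2.02% of all genes did so. The largest positive difference was 0.18, for the large-subunit factor RPF2 (limma adjusted p = 0.240).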

How the data were processed

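Per the labels' protocols, RNA of 11 cultures was labelled as whole transcript sense target for Affymetrix exon arrays. The deposited table holds log2 values of 1399022 probe sets. How the authors corrected for background and normalized, with which software and on which build, is not given in the sources used here. Gene symbols came from the platform's annotation: 355799 probe sets had a single symbol, 15195 had several and were not used, and 1028028 were not listed. Symbols were updated through RefSeq synonyms (2876 of 19536).

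Probe sets with a single symbol were kept if all arrays had an estimate and the mean reached the median of the table (7.91), with at least 4 per gene, which left 220910 probe sets and 14520 genes. The gene value was their median, and the splicing index was the probe set minus the gene value. Differences were tested with limma 3.58.1 (lmFit and eBayes with a trend, R 4.3.3, data.table, version 1.17.8), with Benjamini-Hochberg adjustment over all genes or probe sets and a threshold of 0.05. The pooled comparison had 2 levels, the comparisons of single shRNAs 3 and that of the control constructs 4. On simulated data with 14520 genes, 77.5% of genes changed by 0.25 (log2) were recovered, 97.5% at 0.5 and 100% at 1. The simulated arrays carried only independent spread within constructs, without differences between constructs of a group or shifts of whole arrays. Recovery was counted over genes of all levels, so these shares need not hold for the members. The number of arrays limits the precision, and p-values measure the spread between cultures within a level of the fit. In the pooled comparison, and for the controls in those of single shRNAs, that spread includes differences between the constructs of a group.

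The 35 members, the 128 other genes of the pathway and the marker list were chosen with earlier results of these data known. Values on every array are given for HTATSF1 and, in each of the 6 roles, for the members with the largest difference and the highest level. UBTF, GAR1, UTP20, NOP16, NOP2, DDX21 and TSR1 are given so after their values were seen. The probe sets named have the smallest p of the splicing index, at most 1 per gene, and the other pathway genes named are up to 2 per role with the largest difference, plus DDX49 and RPF2, named after their values were seen. The alternatives were no filter, a higher floor, the mean of the probe sets, quantile normalization, no trend, the array-name suffix as a block or only arrays without it, the replicate number as a block, the GFP shRNA as the only control, and leaving out each array. The signal above the array median, with 32 added before taking log2, was a further setting, chosen after seeing the data. Sequences come from RefSeq (GRCh38.p14).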

Additional observations from a re-analysis of the deposited data

Results flagged for a closer look

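Of 68 sets of 5 control or 6 knockdown arrays tested for a single array far from the rest, 4 were set apart, and chance sets apart about 1 in 20. NHP2 stood at 8.70 on shRNA A replicate 3, with the next knockdown array at 9.04. GAR1 stood at 8.10 on shRNA A replicate 1, with the next knockdown array at 8.04. Among the control arrays, empty vector replicate 2 was the low one for both other genes: TCOF1 stood at 8.95 there, with the next at 9.20, and WDR74 at 8.78, with the next at 8.99.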

How the results depend on the processing

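Of the 33 measured members, 22 kept the sign of their pooled difference under every alternative and with each array left out. The count of members called, 0 in the pooled comparison, was 1 with a higher floor on probe sets (BOP1) and 2 when probe sets were averaged (BOP1 and BYSL); over all genes the calls were 33, against 252 with the higher floor, 140 with the mean, 86 without the trend, 23 after quantile normalization, 19 without the filter, 10 with the replicate block, 2 with the GFP shRNA as the only control and 0 with the suffix block or only arrays without the suffix. The median difference of the members was -0.14 on the signal above the array median, a setting chosen after seeing the data, and between -0.11 and -0.05 under the other alternatives, against -0.08, each within 0.053 (the spread of this median between control arrays) of that value. The differences of BOP1, NCL, BYSL and NOB1 moved by less than 1.5 times under every alternative on the deposited scale. With 1 array left out, the count of members called was 0 to 0 in every comparison and for the splicing index, the median of the members was -0.11 to -0.06 and HTATSF1 -0.34 to -0.26. HTATSF1 missed the threshold at -0.25 without the filter, with the suffix block and on arrays without the suffix, and at -0.30 with the replicate block (adjusted p = 0.0626). Deviations of same-numbered arrays correlated at -0.147 to 0.267 (median 0.041), and those of arrays with other numbers at -0.267 to 0.218 (median -0.021). These overlapping ranges do not settle whether replicate numbers pair the samples. Differences that changed sign were small: without the filter POLR1A 0.0050, NAT10 -0.029 and NOLC1 0.011; with the higher floor POLR1B 0.051; with the mean GAR1 0.0077, NAT10 -0.021 and NOP2 -0.0097; after quantile normalization POLR1A 0.017 and TSR1 0.0059; with the suffix block and on arrays without the suffix NOP2 -0.010 and NPM1 0.055; on the signal above the array median POLR1A 0.0063. With 1 array left out, the sign changed for POLR1A (-0.069 to 0.032), POLR1C (-0.064 to 0.022), WDR43 (-0.0065 to 0.051), TSR1 (-0.064 to 0.031), NPM1 (-0.082 to 0.050) and DDX21 (-0.118 to 0.019). The cause of these changes was not tested. Genes near the array median, such as GAR1 and, less closely, HTATSF1, have compressed differences on the deposited scale.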

Other observations

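UTP20 was the member with the most probe sets, and its positive differences were not even along the gene. By probe set number, 20 of 24 in the first part, 22 of 24 in the middle and 14 of 23 in the last were higher in the knockdown arrays, with median differences of 0.08, 0.12 and 0.01. RRS1, a large-subunit factor, had 3 probe sets that passed the filter and so no gene value. They averaged 8.49, 8.62 and 8.66 in knockdown arrays and 8.42, 8.71 and 8.61 in control arrays, without a common direction.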
